A study of Mus musculus with 8 samples.

Results

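Fibroblast growth factor (FGF) genes were followed in mouse first molar enamel organs between postnatal day 5 (P5) and day 12 (P12). The members were the protein-coding rows whose symbols name an FGF ligand, an FGF receptor, a Sprouty or Spred inhibitor, or Fgfrl1, Fgfbp1, Dusp6, Etv4, Etv5, Il17rd or Klb. They were 40 of 54532 rows, of which 22046 were protein-coding. All libraries came from untreated wt C57BL/6 mice, 4 at P5 (replicates 1, 3, 4 and 5, secretory stage) and 4 at P12 (replicates 1 to 4, maturation stage). Each library was polyA-captured RNA from first molars pooled over several pups, with the soft tissue of the pulp chamber removed and the rest of the molar lysed. Total counts per library ranged from 16574548 to 22013456. The pools were of different pups, and p-values measure the spread between pools.

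FGF ligands are secreted proteins that bind receptor tyrosine kinases together with heparan sulfate on the cell surface. The activated receptors signal mainly through the Ras and MAP kinase relay, which switches on the ETS transcription factors Etv4 and Etv5 and also inhibitors (Sprouty, Spred, Dusp6, Il17rd) that dampen the same relay. In teeth the pathway is known for the exchange of signals between dental epithelium and mesenchyme during crown formation, and for keeping progenitor cells of the growing incisor. Fgf11 to Fgf14 encode homologous proteins that stay inside the cell and bind sodium channels, and Fgf15, Fgf21 and Fgf23 encode hormone-like ligands that need a Klotho co-receptor.

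The labelled stages were checked against markers. The summed normalized count (the count scaled to a common library size) of 4 secretory ameloblast genes was 4966559 to 5580346 at P5 and 237041 to 621683 at P12, with Amelx the most abundant at P5 and Ambn at P12. That of 5 maturation ameloblast genes was 44228, 36789, 37803 and 12880 in P5 replicates 1, 3, 4 and 5, and 356963 to 482565 at P12, with Odam the most abundant at P12 and Amtn, closely followed by Odam, at P5. P5 replicate 5 was thus the lowest P5 library for maturation genes. Within P12, replicate 4 held the highest secretory sum (621683) and replicates 1 to 3 held 237041, 264278 and 433633.

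One library of each age stood apart from the rest. Chi-square per degree of freedom between pairs of libraries, which is near 1 for sampling noise alone, was 17.09 to 18.51 for pairs with P5 replicate 5 and 4.76 to 5.89 for the other P5 pairs. For pairs with P12 replicate 4 it was 31.63 to 74.55, and for the other P12 pairs 8.58 to 18.89.

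Transcripts of other cell types were present at both ages. The sum of 6 odontoblast and mesenchyme genes, led by Col1a1, was 1014727 to 1209135 at P5 and 857134 to 1067016 at P12. The sum of 4 oral mucosa keratins, led by Krt6a, was 790.7 to 1552 at P5, and 38491, 47154, 29349 and 10635 in P12 replicates 1 to 4. This sum was higher in every P12 library than in any P5 library, and lowest, among the P12 libraries, in replicate 4. In that replicate Krt6a (8936) and Krt76 (913.6) were above their P5 ranges (357.8 to 726.3 and 5.29 to 24.4), Krt13 (510) was just above its range (244.5 to 452.5), and Krt4 (276.1) lay within its range (183.1 to 348.4). The sums of 5 epithelium genes (Krt5 the most abundant at P5, Krt14 at P12) were 93168 to 98975 at P5 and 263986 to 328910 at P12, and those of 4 stratum intermedium genes (Alpl, with Jag2 near it at P5) 18731 to 23978 and 17514 to 22352, with Shh, one of them, at 3 to 5 counts in each P12 library. Those of 3 osteoblast genes (Bglap) were 14797 to 20415 at P5 and 20186 to 28659 at P12, of 3 endothelial genes (Cdh5 at P5, Kdr at P12) 1922 to 2306 and 3719 to 4031, and of 3 leukocyte genes (Csf1r) 638 to 900 and 1027 to 1382. Those of 4 cell cycle genes (Mki67) were 1215 to 1622 at P5 and 2149 to 3811 at P12. At P5 and P12, 5 skeletal muscle genes (Acta1) summed to 388 to 666 and 170 to 226, 5 nerve and Schwann cell genes (Tubb3) to 1881 to 2614 and 1191 to 1385, and 2 erythroid genes (Hbb-bs) to 15780 to 30025 and 14675 to 17618. No marker was at 3 counts or fewer in all 8 libraries. The similar stratum intermedium sums covered genes that moved apart. Alpl rose (log2 0.64, edgeR adjusted p 0.001), while Jag2 fell (log2 -1.43, edgeR adjusted p 3.4e-07), as did Shh (log2 -8.32, edgeR adjusted p 2.5e-09). The lists for epithelium, for odontoblast and mesenchyme, and for nerve and Schwann cells also held genes called in both directions. The part of these cell types in the FGF results was not tested, and in bulk tissue fewer cells of a type and less RNA per cell cannot be told apart.

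Of the 40 members, 25 passed the filter on low counts and were tested. Each was tested in edgeR together with all 16440 genes that passed, and p-values were adjusted over all of them by the Benjamini-Hochberg method. Of the 25, 11 were higher at P12 and 5 were lower at an adjusted p under 0.05, against 28.8% of all tested genes higher and 28.4% lower. The remaining 9 tested members did not pass the threshold. The normalized counts of the ages did not overlap, with P12 above, for 10 of the 25, against 26.0% of all tested genes, and with P12 below for 4, against 26.6%. The median log2 fold change was 0.06 over these members and 0.01 over all tested genes, and the median absolute change was 0.59 and 0.41. The 11 include Fgf7, which passed the filter through P12 alone and so had to differ, and the 5 include Fgf21, which passed mainly through P5, where it is high. Fgf16, among the 11, and Fgf9, among the 5, also had 10 counts in more libraries of the age where they are high. These counts and medians describe the tested members only.

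The direction of some members depended on the scaling. The top 20 genes held 33.49% to 35.18% of each P5 library and 15.98% to 18.48% of each P12 library. Leaving those 20 genes out of the scaling gave 4763 genes higher and 4660 lower, against 4735 and 4676 with them, and again 11 members higher and 5 lower. Scaling by total count alone moved the median over all tested genes to 0.38 on the log2 scale, and 79.2% of its calls were then higher at P12 and 20.8% lower, compared with 50.3% and 49.7% in the scaling used here. Measured from that shifted median, the tested members had the same signs as those given here. Subtracting the median largely undoes the change of scaling, so the matching signs follow from it and are not read as support.

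**Figure D1:**
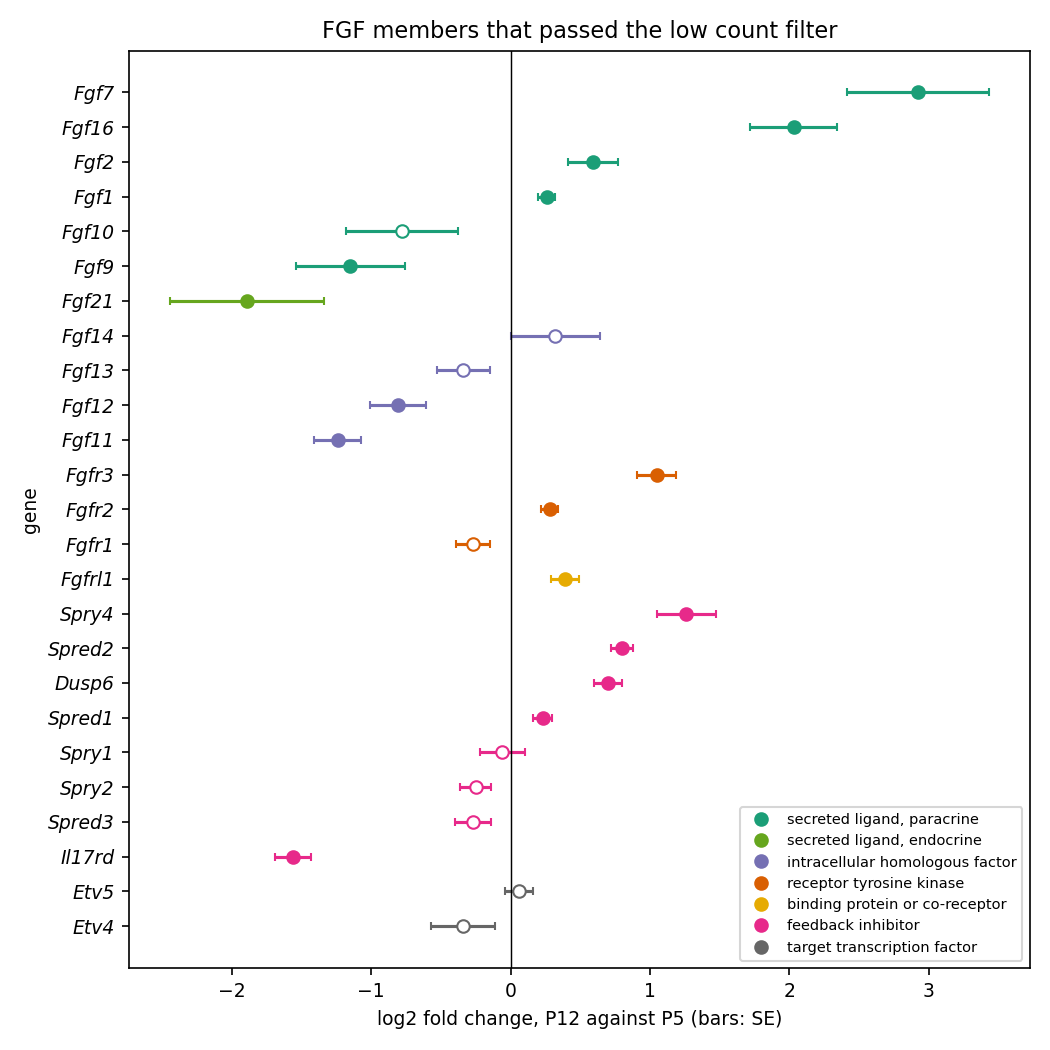
Log2 fold changes of the 25 tested members, P12 against P5, with bars for the SE. Colours give the role of each gene, filled points an adjusted p under 0.05, and open points the 9 members that did not pass. Fgf7 lies farthest to the right (2.92) and Fgf21 farthest to the left (-1.89), both at low counts.

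Fgfr1 dominated the receptors at both ages, while Fgfr2 and Fgfr3 rose. The 4 genes encode the FGF receptor tyrosine kinases, and counts per gene do not separate their epithelial and mesenchymal splice forms. Per kilobase of gene length, the normalized level of Fgfr1 was 2584 ± 150.3 at P5 and 2140 ± 389.5 at P12 (SD, n = 4 each), which ranked 175 and 234 among 22046 protein-coding genes. Fgfr2 followed at 269 ± 9.26 and 327 ± 11.98, then Fgfr3 at 61.6 ± 7.84 and 127 ± 24.9, then Fgfr4 at 0.721 and 2.34. The order was the same at both ages, and no neighbouring pair in it overlapped in its mean ± SD.

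Fgfr1 (chr8:25513654-25575718, GRCm38, plus strand) had 25035, 25436, 24036 and 27561 normalized counts in P5 replicates 1, 3, 4 and 5 and 17432, 20151, 20395 and 26535 in P12 replicates 1 to 4. P12 replicates 1 to 3 lay below every P5 library and replicate 4 lay among them. The log2 fold change was -0.27 (SE 0.12), with an edgeR adjusted p of 0.073. Without P12 replicate 4 it was -0.41 and passed (edgeR adjusted p 0.00073), limma-voom also called it (-0.28, adjusted p 0.046), and scaling by total count alone gave 0.09; the adjusted p ranged from 0.00073 to 0.45 over the alternatives. P12 replicate 4 was the P12 library with the highest secretory ameloblast (621683), maturation ameloblast (482565), stratum intermedium (22352) and endothelial (4031) sums. It had the lowest epithelium (263986), oral mucosa (10635), odontoblast and mesenchyme (857134), osteoblast (20186), leukocyte (1027), nerve (1191), erythroid (14675) and cell cycle (2149) sums. Their part in the Fgfr1 value was not tested.

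Fgfr2 (chr7:130162451-133123350, minus strand) had 2714, 2686, 2837 and 2885 normalized counts at P5 and 3474, 3348, 3215 and 3473 at P12. Every P12 library was above every P5 library. It rose by 0.28 on the log2 scale (SE 0.06, edgeR adjusted p 0.0015). Of its exonic bases, 3.0% are shared with Ctbp2 on the same strand, which had 221 to 612 counts. The part of Ctbp2 reads in the Fgfr2 counts was not tested.

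Fgfr3 (chr5:33721674-33737068, plus strand) had 474.4, 465.1, 466.6 and 356.7 normalized counts at P5 and 1070, 1022, 884 and 671.7 at P12. The ages did not overlap, and P5 replicate 5 and P12 replicate 4 were the lowest of their ages. It was 2.07-fold higher at P12 (log2 1.05, SE 0.14, edgeR adjusted p 8.4e-05). Of its exonic bases, 13.9% are shared with a gene on the opposite strand that had 1 to 5 counts, and whether the counting used strand is not given in the sources used here.

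Fgfr4 (chr13:55152640-55168759, plus strand) did not pass the filter. It had 2, 0, 5 and 1 counts at P5 and 18, 10, 6 and 6 at P12, which in normalized counts was 2.57, 0, 6.59 and 1.06 against 13.2, 8.44, 5.56 and 6.02. The ages overlapped. Its pooled counts per effective library size had a ratio of 3.65 (exact 95% counting interval 1.69 to 9.03, which covers counting error only).

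The share of Fgfr1 among the receptors was lower in every P12 library than in any P5 library. This share of the summed receptor level per kilobase was 88.5%, 88.8%, 87.7% and 89.4% in the P5 libraries and 78.3%, 81.3%, 82.6% and 86.2% in the P12 libraries. The share of Fgfr2 was 9.25% ± 0.44 at P5 and 12.8% ± 1.70 at P12, and that of Fgfr3 2.12% ± 0.36 and 5.07% ± 1.54 (SD, n = 4 each). The shares of these 3 genes did not overlap between the ages. Shares within a library do not depend on the scaling between libraries.

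**Figure D2:**
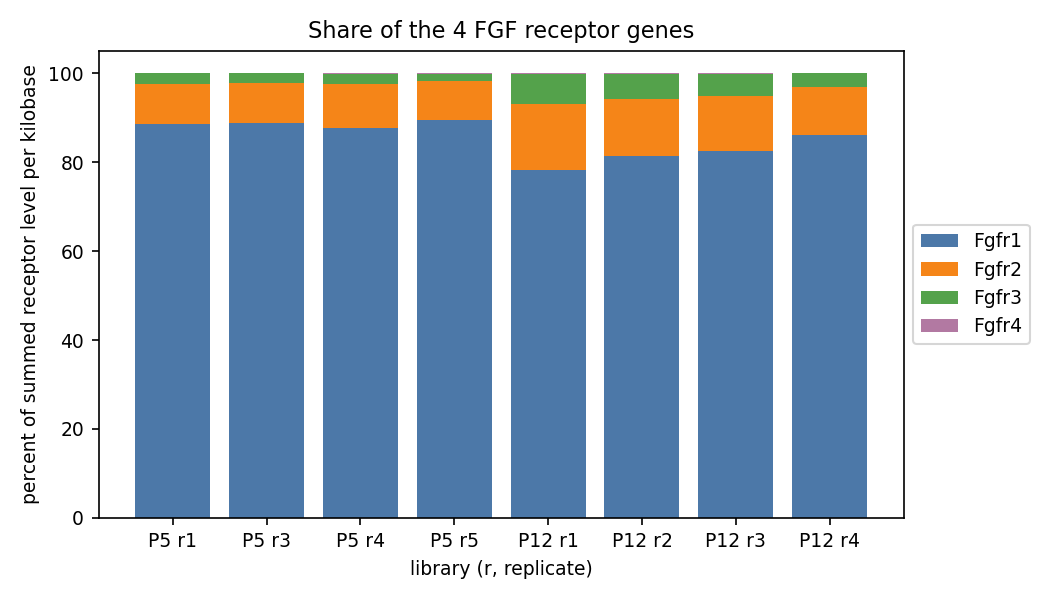
Share of each FGF receptor gene, in percent of the summed normalized level per kilobase, in each of the 8 libraries. Fgfr1 takes 87.7% to 89.4% at P5 and 78.3% to 86.2% at P12; Fgfr4 is under 0.17% in each library and is too thin to see.

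Among the secreted ligands, Fgf1 was by far the most abundant, and Fgf1 and Fgf2 rose. Fgf16 was called higher and Fgf9 lower, both at low counts. Fgf2 and Fgf9 overlapped between the ages and did not pass in every alternative. Of 15 paracrine ligands 6 were tested, with 4 higher (among them Fgf7, which had to differ), 1 lower and 1 (Fgf10) not past the threshold, beside 28.8% higher and 28.4% lower over all tested genes, and of 3 endocrine ligands 1 was tested, and it was lower (Fgf21, which passed the filter mainly through the age where it is high). Per kilobase, Fgf1 stood at 237 ± 12.5 at P5 and 284 ± 11.3 at P12. The next ligands were Fgf21 (21.3 ± 7.12) and Fgf2 (12.2 ± 1.83) at P5, and Fgf16 (38.9 ± 10.4) and Fgf2 (18.3 ± 3.44) at P12. At P5, Fgf2 and Fgf16 (9.51 ± 3.82) did not differ beyond their spread.

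Fgf1 encodes a ligand that binds all FGF receptors and leaves cells without a signal peptide. It had 1175, 1093, 1033 and 1103 normalized counts at P5 and 1270, 1281, 1355 and 1374 at P12. Every P12 library was above every P5 library, by a small margin. It rose by 0.26 on the log2 scale (SE 0.06, edgeR adjusted p 0.0034).

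Fgf2, which also lacks a classical signal peptide, had 98.99, 84.97, 71.18 and 75.15 normalized counts at P5 and 134.2, 138.4, 135.3 and 89.36 at P12. P12 replicate 4 lay within the P5 range, and the other P12 libraries lay above it. Fgf2 was 1.51-fold higher at P12 (log2 0.59, SE 0.18, edgeR adjusted p 0.016). In the 6 libraries whose replicate number occurs at both ages it no longer passed (0.49, adjusted p 0.097, and 0.48, 0.071 with the number as a block), and the adjusted p ranged from 0.001 to 0.097 over the alternatives. Fgf2 shares 13.2% of its exonic bases with other genes, mainly Nudt6 on the opposite strand, which had 16 to 56 counts.

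Fgf16 and Fgf7 had the largest log2 fold changes above 0 of the tested members, at low counts, and are singled out here after their values were seen. Fgf16, a ligand of the Fgf9 subfamily, had 10.55 to 23.48 normalized counts at P5 and 49.78 to 85.78 at P12, 4.07-fold higher (log2 2.03, SE 0.31, edgeR adjusted p 0.00021). Fgf16 had 10 counts in 3 P5 and 4 P12 libraries. It thus met the filter more at P12, where it is high, and its test is read with that limit. Fgf7, the keratinocyte growth factor made by mesenchyme and read by epithelial Fgfr2, had 1.29 to 7.83 at P5 and 18.5 to 55.0 at P12 (log2 2.92, SE 0.51). No P5 library had 10 counts of Fgf7, so it passed the filter through P12 alone, had to differ, and its test adds nothing. Its pooled counts, 15 at P5 and 164 at P12, had a ratio of 7.98 (exact 95% counting interval 4.70 to 14.6).

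Fgf9, an epithelial ligand of early tooth development, and Fgf21, a hormone of the fasting response, passed the threshold with lower values at P12, and neither passed in every alternative. Fgf9 had 39.85, 33.54, 31.64 and 17.99 normalized counts at P5 and 21.26, 16.88, 8.34 and 7.03 at P12, and the ages overlapped. Its log2 fold change was -1.15 (SE 0.39, edgeR adjusted p 0.025), and it did not pass without P5 replicate 1 (-1.01, adjusted p 0.072), 3 (-1.12, 0.06) or 4 (-1.15, 0.052), without P12 replicate 3 (-0.98, 0.071), or with total count scaling (-0.77, 0.11). Its adjusted p ranged from 0.011 to 0.11 over the alternatives. Fgf21 had 12.3 to 28.3 at P5 and 0.733 to 11.04 at P12, without overlap (log2 -1.89, SE 0.55). It had 10 counts in 4 P5 libraries and in 1 P12 library, so it passed the filter mainly through P5, and its test is not read as support. In the 6 libraries whose numbers occur at both ages it did not pass (-1.77, edgeR adjusted p 0.055, and -1.82, 0.069 with the number as a block), its adjusted p ranging from 0.0026 to 0.069. Its pooled counts, 67 at P5 and 24 at P12, had a ratio of 0.261 (exact 95% counting interval 0.157 to 0.422). Fgf9 had 10 counts in 4 P5 and 2 P12 libraries. It thus met the filter more at P5, where it is high, and its test is read with that limit.

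Fgf10, the mesenchymal ligand of the incisor stem cell niche, was tested and did not pass, with 8.999 to 17.99 normalized counts at P5 and 4.02 to 11.1 at P12 (log2 -0.78, SE 0.40, edgeR adjusted p 0.12). The other 11 secreted ligands were below the filter. Fgf5, an inhibitor of hair growth, had 8, 18, 7 and 16 counts at P5 and 1, 0, 0 and 4 at P12. All P12 values were below all P5 values, with a pooled ratio of 0.0745 (exact 95% counting interval 0.0232 to 0.186). Fgf3, which mesenchyme and epithelium use in crown formation, had 20 counts in all at P5 and 4 at P12, with overlapping libraries (ratio 0.146, interval 0.0363 to 0.436). Fgf18 had 30 and 38 counts in all, Fgf22 36 and 37, and Fgf17 17 and 18. Fgf4, Fgf6, Fgf8, Fgf15, Fgf20 and Fgf23 had at most 4 counts in any library, and those of Fgf4, Fgf6, Fgf15 and Fgf20 were all 0 at P12, where 3 counts would be a normalized count of 2.20 to 3.01. A change in them was not detectable at this depth.

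The intracellular homologous factors were all tested, with 2 of 4 (Fgf11 and Fgf12) lower at P12 and the others not past the threshold, beside 28.4% of all tested genes lower. Fgf11 had 371.5, 377.9, 349.3 and 535.6 normalized counts at P5 and 203.1, 138.4, 198.3 and 153.6 at P12. The ages did not overlap, and P5 replicate 5 was the highest library. Fgf11 fell by 1.24 on the log2 scale (SE 0.17, edgeR adjusted p 7.2e-05). Fgf12 had 67.2 to 95.3 at P5 and 35.9 to 55.7 at P12 (log2 -0.81, SE 0.20, edgeR adjusted p 0.0054), and did not pass with total count scaling (-0.44, adjusted p 0.082), its adjusted p ranging from 0.0019 to 0.082. Fgf13 (log2 -0.34, edgeR adjusted p 0.15) and Fgf14 (0.32, adjusted p 0.42) did not pass, and the sign of Fgf13 turned to 0.03 with total count scaling.

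Of the binding proteins and co-receptors, Fgfrl1 rose, Fgfbp1 was below the filter but not near 0 in every library, and Klb was near 0. Fgfrl1 encodes a receptor relative without a kinase domain. It had 590.1, 541.1, 560.2 and 446.7 normalized counts at P5 and 730.2, 599.1, 761.7 and 713.8 at P12, and the ages did not overlap. It rose by 0.39 on the log2 scale (SE 0.10, edgeR adjusted p 0.006). Klb, the co-receptor of Fgf21 and of Fgf15, had 2 counts in all at each age.

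Fgfbp1 encodes a secreted carrier that frees FGFs from heparan sulfate and is known from squamous epithelia. It had 0, 2, 2 and 3 counts at P5 and 131, 122, 117 and 6 at P12, or normalized counts of 0, 2.24, 2.64 and 3.17 against 96.1, 102.9, 108.4 and 6.02. The ages did not overlap, but P12 replicate 4 lay close to the P5 libraries and kept the gene from passing the filter. Its pooled ratio was 39.2 (exact 95% counting interval 18.8 to 98.2). Over the same P12 libraries the oral mucosa sums were 38491, 47154, 29349 and 10635. In replicate 4, where Fgfbp1 was near its P5 level, Krt13 (510) and Krt4 (276.1) were also just above or within their P5 ranges, and Krt6a (8936) and Krt76 (913.6) were far above theirs. The part of oral mucosa in the Fgfbp1 values was not tested.

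**Figure D3:**
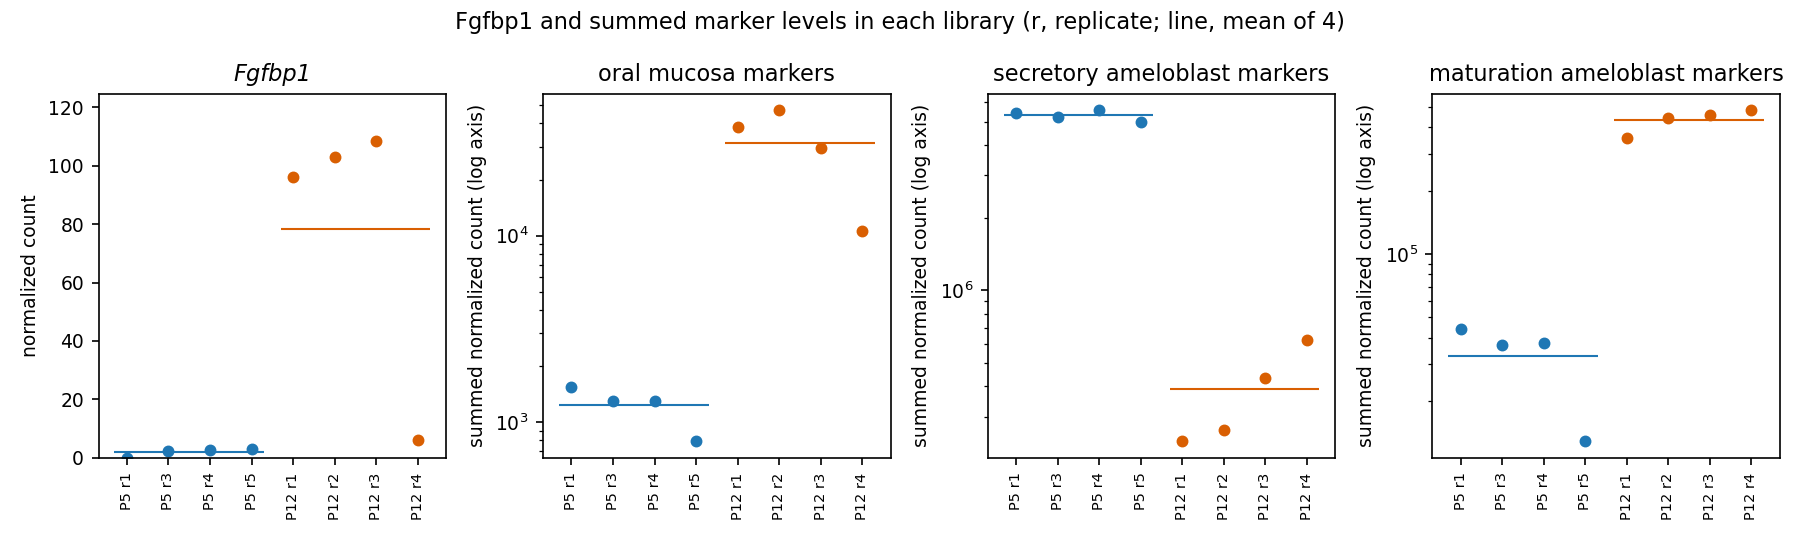
Normalized counts of Fgfbp1 (linear axis) and summed normalized counts of the oral mucosa, secretory ameloblast and maturation ameloblast markers (log axes) in each library, with a line at the mean of 4. Fgfbp1 is 96.1 to 108.4 in P12 replicates 1 to 3 and 6.02 in replicate 4, the P12 library with the lowest oral mucosa sum (10635).

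Of 9 feedback inhibitors 8 were tested: 4 were higher at P12 (Spry4, Spred2, Dusp6, Spred1), 1 was lower (Il17rd) and 3 did not pass (Spry1, Spry2, Spred3), beside 28.8% of all tested genes higher and 28.4% lower. Per kilobase, Spred1 was the most abundant at both ages (222 ± 10.9 and 261 ± 23.98), followed at P5 by Dusp6 (111 ± 8.84) and Spred2 (99.2 ± 7.57), which overlapped in mean ± SD with each other and with Spry2 (95.6 ± 10.2), and at P12 by Dusp6 (181 ± 23.98) and Spred2 (173 ± 10.7), which overlapped too.

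Dusp6 encodes the cytosolic phosphatase that inactivates ERK. It had 367.7, 360.0, 361.2 and 308.0 normalized counts at P5 and 546.2, 675.9, 546.7 and 502.0 at P12. The ages did not overlap, and P5 replicate 5 was the lowest library. Dusp6 was 1.63-fold higher at P12 (log2 0.70, SE 0.10, edgeR adjusted p 0.00014).

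Spred2, a membrane protein that blocks Raf activation, had 451.2, 466.2, 415.2 and 499.6 normalized counts at P5 and 827, 724, 823.8 and 816.3 at P12. No library of one age reached the other, and the fold was 1.74 (log2 0.80, SE 0.08, edgeR adjusted p 5.6e-06). Its relative Spred1 had 1559, 1457, 1574 and 1426 at P5 and 1677, 1691, 1697 and 2013 at P12, with replicate 4 highest. Spred1 rose by 0.23 on the log2 scale (SE 0.07, edgeR adjusted p 0.017) and did not pass without P5 replicate 3 (0.21, adjusted p 0.059) or without P5 replicate 5 (0.20, 0.051), nor in the 6 libraries whose numbers occur at both ages (0.23, 0.051, and 0.23, 0.055 with the number as a block). Without P5 replicate 5 and P12 replicate 4 together it was 0.14 (adjusted p 0.044), its adjusted p ranging from 5.6e-06 to 0.059.

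Spry4 is a Sprouty, a family of inhibitors induced by receptor tyrosine kinases. It had 64.3, 76.0, 130.5 and 115.4 normalized counts at P5 and 263.2, 230.4, 243.7 and 187.7 at P12. The ages did not overlap. Spry4 was 2.40-fold higher at P12 (log2 1.26, SE 0.21, edgeR adjusted p 0.00035).

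Il17rd, also called Sef, is a membrane inhibitor of FGF signalling. It had 511.7, 474.0, 483.8 and 696.5 normalized counts at P5 and 190.6, 167.9, 187.2 and 187.7 at P12. The lowest P5 library was above the highest P12 library, and P5 replicate 5 stood above the other P5 libraries. Il17rd fell by 1.56 on the log2 scale (SE 0.13, edgeR adjusted p 1.5e-06).

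P5 replicate 5, which held the lowest Dusp6 and Fgfr3 and the highest Il17rd and Fgf11 of its age, held extreme sums for most marker lists at P5. It was the lowest P5 library for maturation ameloblast (12880), secretory ameloblast (4966559), oral mucosa (790.7), osteoblast (14797), erythroid (15780), leukocyte (638.2), cell cycle (1215) and skeletal muscle (388.4) genes, and the highest for stratum intermedium (23978), endothelial (2306) and nerve (2614) genes. Their part in these values was not tested. Without P5 replicate 5 the log2 fold change was 0.64 for Dusp6, 0.96 for Fgfr3, -1.42 for Il17rd and -1.08 for Fgf11, each with an edgeR adjusted p of 0.00059 or less. Without P12 replicate 4 as well it was 0.70, 1.08, -1.43 and -1.02.

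Of the inhibitors that did not pass, Spry1 had 218 to 234 normalized counts at P5 and 165 to 273 at P12 (log2 -0.06, SE 0.16, edgeR adjusted p 0.77). Spry2 had 176 to 223 and 158 to 184 (log2 -0.25, adjusted p 0.089), and Spred3 139 to 175 and 116 to 155 (log2 -0.27, adjusted p 0.10). With total count scaling the signs of Spry1, Spry2 and Spred3 turned, to 0.32, 0.13 and 0.10. Spred3 passed without P12 replicate 4 (-0.34, edgeR adjusted p 0.049), within a range from 0.049 to 0.53. Spry1 shares 24.4% of its exonic bases with an opposite-strand gene that had 0 to 7 counts. Spry3 was below the filter, with at most 9 counts in a library.

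Etv4 and Etv5, the ETS transcription factors that FGF signalling induces, did not pass the test. Etv5 had 415 to 506 normalized counts at P5 and 421 to 553 at P12 (log2 0.06, SE 0.10, edgeR adjusted p 0.64). With total count scaling Etv5 was 0.44 (adjusted p 0.0067), and its adjusted p ranged from 0.0067 to 0.90. Etv4 had 85.0 to 159.8 at P5 and 64.3 to 109.2 at P12 (log2 -0.34, SE 0.23, edgeR adjusted p 0.24), and its sign turned to 0.04 with total count scaling. A p over the threshold does not show that their levels were equal.

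**Figure D4:**
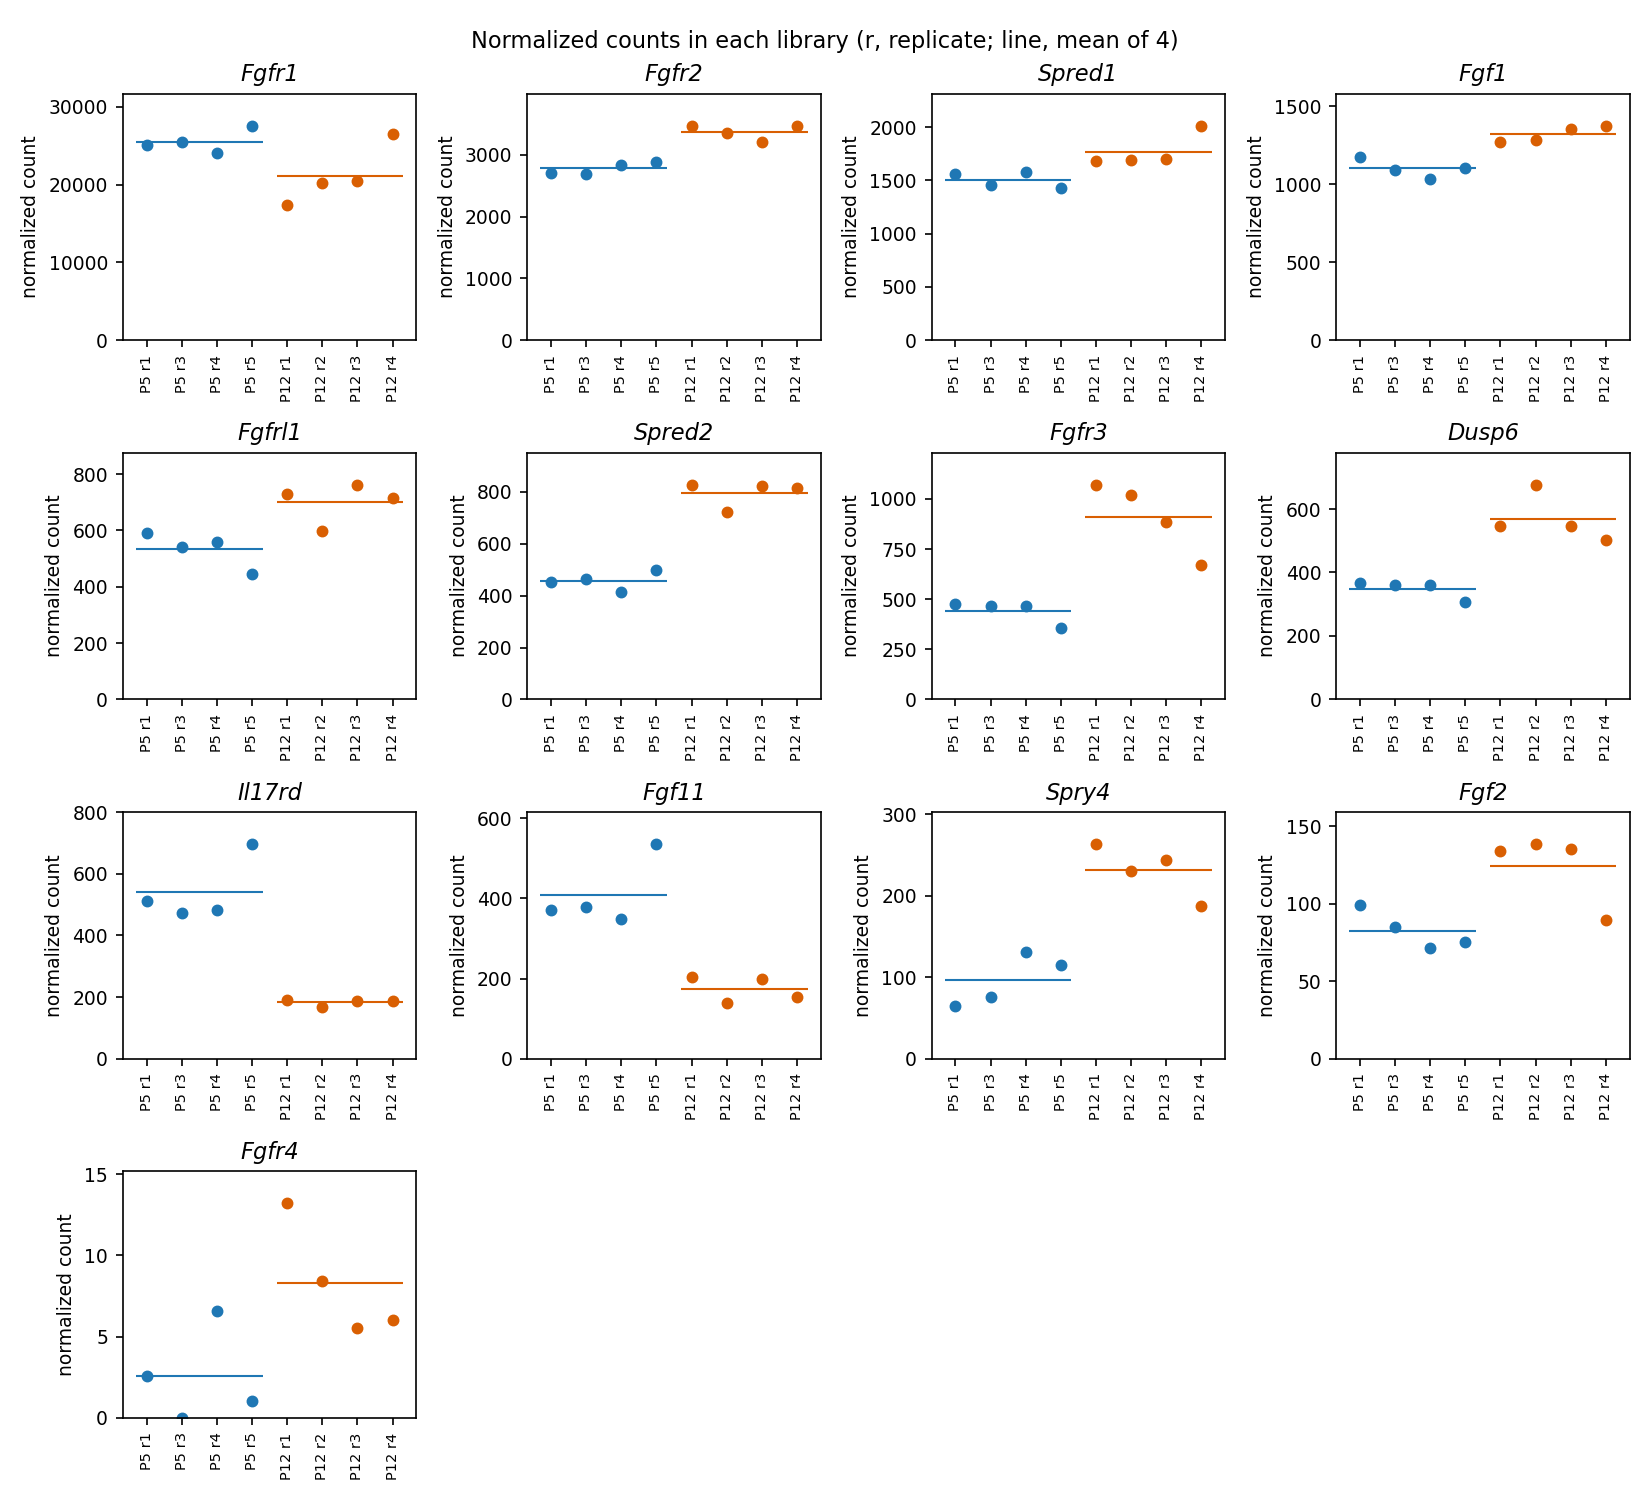
Normalized counts in each library for the 13 members given in full, with P5 in blue, P12 in orange and a line at the mean of 4; every axis starts at 0. Fgfr2, Fgfr3, Spred1, Spred2, Dusp6, Spry4, Fgf1 and Fgfrl1 are higher in every P12 library than in any P5 library, Il17rd and Fgf11 lower, and Fgfr1, Fgf2 and Fgfr4 overlap.

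The promoters of the members were read for motifs of factors at the end of the MAP kinase relay. RefSeq promoters on GRCm38.p6, 250 bases before to 50 bases after each start, were found for 30 of the 40 members (38 promoters). The ETS motif CCGGAAG, searched on both strands, occurred in 1 of the 38 (Fgfrl1) and in 8.86% of all 32851 promoters of this length. The AP-1 motif TGAGTCA, also on both strands, occurred in 1 (1 of 4 starts of Fgf12) and in 5.20% of all. All other promoters read held neither motif in this window, among them those of the feedback genes Dusp6, which rose, and Il17rd, which fell. The promoters with a match are printed with the motif in capitals, followed by those of Dusp6 and Il17rd. They are, 5′ to 3′, Fgfrl1 (chr5:108693979-108694278, plus strand), Fgf12 (chr16:28446026-28446325, minus strand), Dusp6 (chr10:99262981-99263280, plus strand) and Il17rd (chr14:27038751-27039050, plus strand).
Fgfrl1: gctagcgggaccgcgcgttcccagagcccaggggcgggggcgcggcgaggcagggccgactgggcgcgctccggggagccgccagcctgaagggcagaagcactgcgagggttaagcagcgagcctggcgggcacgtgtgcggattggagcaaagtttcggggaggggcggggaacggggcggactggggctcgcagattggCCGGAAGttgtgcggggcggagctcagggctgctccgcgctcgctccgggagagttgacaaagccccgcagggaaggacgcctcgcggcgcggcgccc
Fgf12: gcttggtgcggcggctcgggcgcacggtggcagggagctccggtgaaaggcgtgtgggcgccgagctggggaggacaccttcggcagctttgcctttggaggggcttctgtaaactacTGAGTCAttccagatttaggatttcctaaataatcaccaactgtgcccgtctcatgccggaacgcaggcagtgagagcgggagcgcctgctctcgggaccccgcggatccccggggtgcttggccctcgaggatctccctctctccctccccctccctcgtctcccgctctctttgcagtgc
Dusp6: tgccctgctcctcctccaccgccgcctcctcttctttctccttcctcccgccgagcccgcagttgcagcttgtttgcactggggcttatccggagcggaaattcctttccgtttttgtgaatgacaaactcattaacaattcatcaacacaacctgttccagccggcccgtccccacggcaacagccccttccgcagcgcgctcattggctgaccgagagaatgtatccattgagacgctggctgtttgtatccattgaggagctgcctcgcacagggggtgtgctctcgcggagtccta
Il17rd: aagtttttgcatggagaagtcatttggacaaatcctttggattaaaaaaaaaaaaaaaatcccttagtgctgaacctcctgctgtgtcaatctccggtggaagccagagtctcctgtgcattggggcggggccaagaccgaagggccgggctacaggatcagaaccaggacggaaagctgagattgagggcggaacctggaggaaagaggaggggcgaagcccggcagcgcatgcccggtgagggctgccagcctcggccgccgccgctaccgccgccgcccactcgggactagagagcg

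The ETS match lay 48 bases before the Fgfrl1 start and the AP-1 match 132 bases before the Fgf12 start. The matches describe letters in the reference and show no binding. Etv4, Fgf1, Fgf8, Fgf15, Fgf16, Fgf17, Fgf20, Fgfr1, Spry3 and Spry4 were not read.

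The other genes of the pathway were taken as 65 genes in 4 lists, of which 63 were tested, 23 were higher at P12 and 25 lower, beside 28.8% and 28.4% of all tested genes, with a median log2 fold change of -0.10 (0.01 over all tested genes). With total count scaling the counts were 35 and 10.

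The list of cofactors and heparan sulfate genes had 9 of 24 tested genes higher and 11 lower (11 and 5 with total count scaling), beside 28.8% and 28.4% of all tested genes. It holds proteoglycans and the enzymes that build or trim heparan sulfate, and also Flrt1, Flrt2, Flrt3, Fgfbp3 and Kl, which are neither. Sulf2, which removes sulfate from heparan sulfate, was 363 ± 43.7 normalized counts at P5 and 1813 ± 199 at P12 (log2 2.32, edgeR adjusted p 1.6e-08). The membrane proteoglycans Sdc4 and Sdc1 rose by 2.11 and 1.12 on the log2 scale (edgeR adjusted p 1.4e-09 and 8.5e-07). The glypicans Gpc2 and Gpc3 fell by 2.07 and 2.04 (edgeR adjusted p 1.1e-06 and 2.3e-08), Gpc3 from 5668 ± 367 to 1373 ± 179. Gpc5, at 13.0 ± 3.27 and 6.59 ± 2.63, was lower by a narrow margin (log2 -0.98, edgeR adjusted p 0.045), had 10 counts in 3 P5 libraries and 1 P12 library, and did not pass with DESeq2 (adjusted p 0.13), without a filter (-0.96), with total count scaling (-0.62) or without any one of 6 libraries (P5 replicates 1, 4 and 5, P12 replicates 1, 2 and 3; -0.99, -0.98, -0.82, -0.93, -1 and -0.79), nor in the 6 libraries of shared numbers (-0.83, and -0.87 with the block), its adjusted p ranging from 0.025 to 0.18. Kl, the Klotho co-receptor of Fgf23, was below the filter.

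Of 21 genes of the intracellular relay, 11 were lower and 4 higher (3 and 10 with total count scaling), beside 28.4% and 28.8% of all tested genes. The PI3 kinase subunit Pik3r1 fell from 3777 ± 181 to 1347 ± 131 normalized counts (log2 -1.49, edgeR adjusted p 4.9e-08), the phospholipase Plcg1 by 1.24 on the log2 scale and the adaptor Grb2 by 0.78 (edgeR adjusted p 6e-08 and 1.9e-06). The MAP kinase kinase Map2k1 rose by 0.62, and the ERK gene Mapk3 and the catalytic subunit Pik3ca by 0.38 each (edgeR adjusted p 4.2e-06, 0.00023 and 0.00014). These are changes in transcript, and kinase activity was not measured.

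Of 10 negative regulators outside the members, 4 were higher and 3 lower (6 and 2 with total count scaling), beside 28.8% and 28.4% of all tested genes. Among the MAP kinase phosphatases, Dusp5 rose from 61.1 ± 16.6 to 342 ± 130 normalized counts (log2 2.46, edgeR adjusted p 2.6e-05) and Dusp1 by 1.44 (edgeR adjusted p 9e-07), while Dusp4 fell from 286.5 ± 17.6 to 65.6 ± 15.9 (log2 -2.12, edgeR adjusted p 9.4e-07). Errfi1, an inhibitor of EGF receptors, rose by 1.17 (edgeR adjusted p 2e-06). The Ras inactivator Nf1 fell by 0.56 (edgeR adjusted p 7.2e-06), and the ubiquitin ligase Cblb was lower (log2 -0.29, edgeR adjusted p 0.017) but turned to 0.09 with total count scaling and did not pass without P5 replicate 5 and P12 replicate 4 together (-0.19, adjusted p 0.076) or with replicate number as a block (-0.28, 0.052), its adjusted p ranging from 0.011 to 0.47.

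Of the MAPK-responsive genes, mostly transcription factors, 6 of 8 tested were higher at P12 (8 with total count scaling), beside 28.8% of all tested genes, and the median log2 fold change was 1.34. Ier3, which encodes a stress-induced regulator of cell survival and no transcription factor, rose from 173.8 ± 18.9 to 958 ± 154.5 normalized counts (log2 2.47, edgeR adjusted p 5.2e-08), the AP-1 factor Junb from 374 ± 36.1 to 1917 ± 105 (log2 2.36, edgeR adjusted p 2.5e-09) and Myc from 170.5 ± 35.96 to 490 ± 152 (log2 1.53, edgeR adjusted p 0.00016). Ier2, Egr1, Etv1 and Egr2 are named after their values were seen. Ier2 passed narrowly (log2 0.37, edgeR adjusted p 0.022) and did not pass without P5 replicate 3 (0.32, 0.071), P12 replicate 2 (0.29, 0.067) or P12 replicate 3 (0.33, 0.059), nor in the 6 libraries of shared numbers (0.31, 0.082, and 0.30, 0.1 with the block), its adjusted p ranging from 0.00014 to 0.1. Egr1 did not pass (log2 0.52, edgeR adjusted p 0.063) but did in 8 alternatives, among them without P5 replicate 5 (0.73, 0.013) and without P12 replicate 4 (0.65, 0.013), its adjusted p ranging from 0.00025 to 0.21. Etv1 did not pass (log2 0.09, edgeR adjusted p 0.68) and turned to -0.03 without P5 replicate 5 and to -0.01 without P12 replicate 3. With total count scaling Etv1 passed (0.46, adjusted p 0.037, in a range from 0.037 to 0.98). Egr2 was below the filter. All tested genes of this list except Fos had their lowest P12 value in replicate 4. In that library Ier2 (468.9), Egr1 (632.5) and Etv1 (172.7) lay within their P5 ranges. Those ranges were 442.7 to 507.0, 456.1 to 860.5 and 136.5 to 216.0. Ier3 (736.9), Junb (1811), Myc (302.2) and Fosl1 (38.15) lay above theirs. Many stimuli besides FGF are known to induce these genes.

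**Figure D5:**
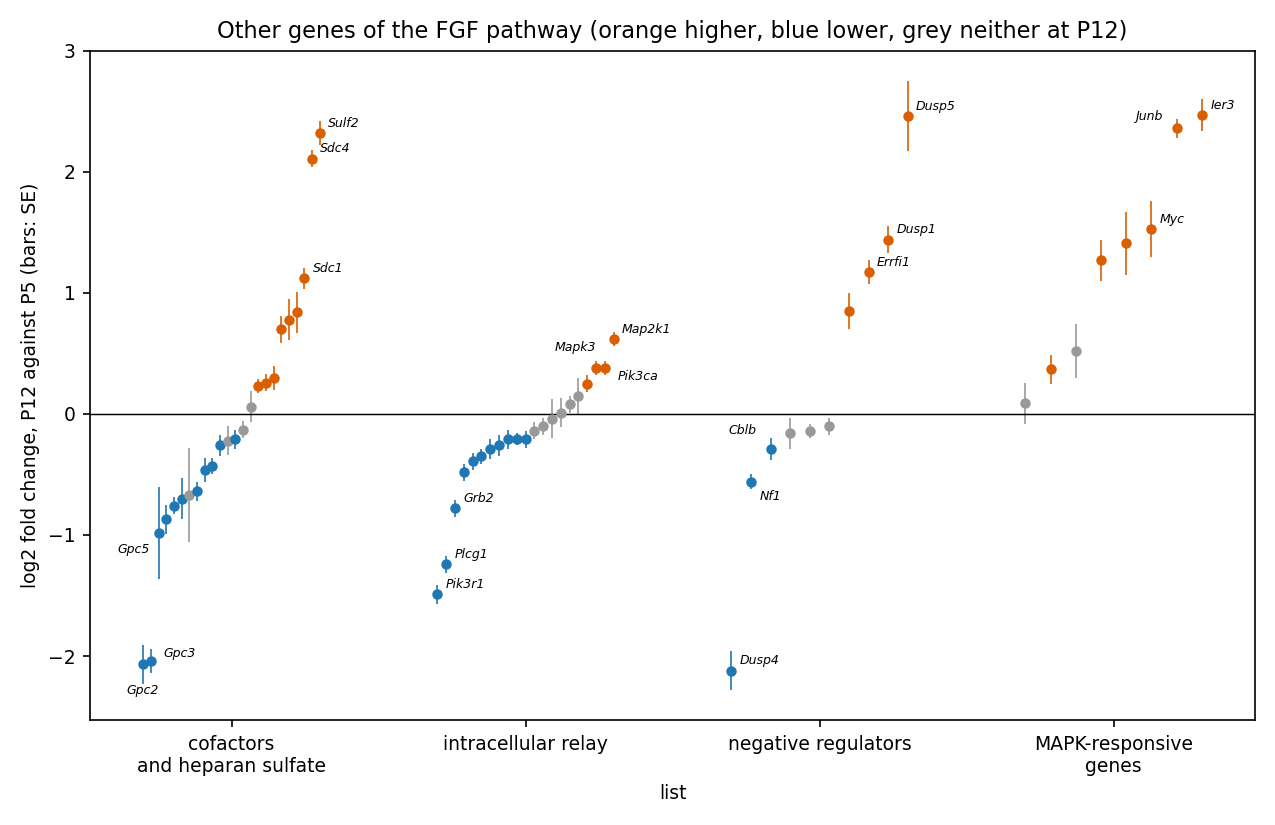
Log2 fold changes, P12 against P5, of the 63 tested genes in the 4 pathway lists, with bars for the SE; orange points were higher, blue points lower and grey points not past an adjusted p of 0.05. The relay genes run from -1.49 (Pik3r1) to 0.62 (Map2k1), and the MAPK-responsive genes from 0.09 (Etv1, which turns to -0.03 without P5 replicate 5) to 2.47 (Ier3).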

How the data were processed

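Enamel organ RNA from first molars of wt C57BL/6 pups was captured by polyA, sequenced and counted per gene by the authors, who deposited raw read counts for 8 libraries and the length of each gene. The aligner, the counter and its use of strand are not given in the sources used here. The submitters' processing notes name CASAVA and mm39, but 53548 of the 54495 gene IDs shared with GENCODE M21 have its GRCm38 coordinates, so coordinates are given on GRCm38. The deposited gene lengths served only to express levels per kilobase.

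All genes were fitted together in R 4.3.3 using edgeR 4.0.16, with its default filter for low counts, TMM scaling and the quasi-likelihood test for age, at a Benjamini-Hochberg adjusted threshold of 0.05. SEs were taken from the F statistic. A normalized count is the raw count rescaled from its own effective library size to the mean one, 19006280, so that 1 count was worth between 0.733 and 1.32. The exact two-sided permutation test used log2 of the normalized count plus 1; ages that do not overlap always get its smallest p, 0.0286 over 70 assignments, so it is not read as support. Totals per library in P5 replicates 1, 3, 4 and 5 came to 16963323, 19251202, 16574548 and 20262601, and in P12 replicates 1 to 4 to 22013456, 19520437, 18036016 and 17588152.

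Called members that averaged at least 100 normalized counts at either age, and the 4 receptors, are given in every library; of each pathway list the 3 largest rises and falls are named. Members and lists were chosen with earlier results of these data known. Alternatives were DESeq2 1.42.0, limma-voom 3.58.1, other scalings, filters and thresholds, and leaving out libraries. The fold changes of the named pathway genes, and of Etv1, Egr1 and Ier2, and the permutation tests were rerun under alternatives chosen after seeing the data.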

Additional observations from a re-analysis of the deposited data

Results flagged for a closer look

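Values that stood far from the other 3 libraries of their age were looked for in 125 groups of 4 libraries, of which chance flags about 1 in 20. There were 11, of which 5 were in P5 replicate 5 and 3 in P12 replicate 4.

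In P5 replicate 5, Il17rd had 696.5 normalized counts against 474.0 to 511.7 in the other P5 libraries, and Fgf11 had 535.6 against 349.3 to 377.9. In the same library Fgfr3 had 356.7 against 465.1 to 474.4, which was 1.60% of the receptor level against 2.24% to 2.35%, and Dusp6 had 308.0 against 360.0 to 367.7.

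In P12 replicate 4, Fgfbp1 had 6.02 normalized counts against 96.1 to 108.4, Fgf2 had 89.36 against 134.2 to 138.4, and Spred1 had 2013 against 1677 to 1697. In P12 replicate 2, Spred2 had 724 against 816.3 to 827, and Il17rd had 167.9 against 187.2 to 190.6. In P5 replicate 1, Grb2 had 2625 normalized counts against 2322 to 2372.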

How the results depend on the processing

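Over 18 alternatives at most per gene, 11 of the 16 called members kept their direction and their side of the threshold in each. Spred1, Fgf2, Fgf9, Fgf12 and Fgf21 did not. The 11 include Fgf7, which passed the filter through P12 alone and had to differ, so its part in this count adds nothing. Fgf7 and Fgf16 were fitted in 17 alternatives. Of the recomputed fold changes of members, 409 kept both, 11 turned, 14 no longer passed and 5 passed only then. With total count scaling, whose median over all genes is 0.38, the log2 fold changes of Fgfr1, Spry1, Spry2, Fgf13, Spred3 and Etv4 turned to 0.09, 0.32, 0.13, 0.03, 0.10 and 0.04, and that of Cblb, added after seeing the data, to 0.09. That of Etv1, also added then, ranged from -0.03 to 0.19 without 1 library, and was -0.01 and, with the block, 0.00 in the 6 libraries of shared replicate numbers. Without P5 replicate 5 and P12 replicate 4 together, Spry1 and Etv4 turned to 0.03 and 0.02. Over the fits that leave out 1 library or these together, Spry1 ranged from -0.20 to 0.05, Etv5 from -0.04 to 0.17 and Etv4 from -0.47 to 0.02. None of these passed the main test except Cblb. Of the pathway genes called lower in the main test, others besides Cblb also changed sign with total count scaling. They were Map2k2 (0.17), Sos1 (0.17), Frs2 (0.16), Sulf1 (0.16), Gab1 (0.11), Hs2st1 (0.11), Shc1 (0.08) and Ptpn11 (0.03). With that scaling Map2k2 passed as higher (edgeR adjusted p 0.014), and the rest of them did not pass. The causes were not tested.

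With total count scaling 3 members were lower instead of 5, and 35 pathway genes were higher and 10 lower instead of 23 and 25. With at least 10 counts in every library, where fewer genes were tested, 3 members were lower, and with an adjusted p under 0.01 also 3. With calls limited to log2 changes of 1 or more in size, 3541 genes were called instead of 9411, 4 members were higher instead of 11, and 11 and 5 pathway genes were higher and lower. Without a filter Fgfbp1 (log2 5.19), Fgf5 (-3.53) and Fgf3 (-2.58) also passed (adjusted p 4.7e-07, 0.00053 and 0.041). The permutation p of Fgfbp1 and of Fgf5, leaving out 1 library, ranged from 0.0286 to 0.0571, over fewer assignments; with ages that do not overlap this is the smallest p the libraries allow and adds nothing to the non-overlap.

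The replicate numbers shared by both ages did not pair the libraries: the deviations of same-numbered libraries correlated at 0.04, 0.00 and -0.04. With the replicate block 7710 genes, 9 members higher and 4 lower, and 21 and 18 pathway genes were called, against 8117, 9, 4, 21 and 20 in the same 6 libraries without it. Of the members 15 were below the filter, and 6 of them had 3 counts or fewer in every library, where a change was not detectable at this depth.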
